A study of Homo sapiens with 6 samples.

Results

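The tumour protein D52 family is a small set of related coiled-coil proteins, and 3 of its genes, TPD52, TPD52L1 and TPD52L2, were followed here through every transcript record that the array's annotation gives them. The genes were chosen from earlier results of the same data, since TPD52L1 was among the largest rises with DCC-2036, and the other members were taken along as its relatives. They had 6 of the 45033 records on the array, with 4 for TPD52L1 and 1 each for TPD52 and TPD52L2, and stood for 3 of 17185 named genes. Because the drug contrast itself chose the family, the changes of its members are given as a description, with no p-value.

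The treated cultures were MDA-MB-231 cells, an established human triple-negative breast cancer line, kept with DCC-2036 at 3.75 μM for 48 h, and the control cultures were the same line kept for 48 h at 0 μM. DCC-2036, also called rebastinib, is a kinase inhibitor made against ABL1, with TEK and several further tyrosine kinases among its known targets. Each group had 3 one-colour arrays, from experiments that the labels call independent, and a single cell line at a single dose and time limits what they stand for. The vehicle given to the control cells is not stated in the sources used here.

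Proteins of the family bind each other and themselves through a coiled coil and sit on small transport vesicles and endosomal membranes, where they take part in secretion and membrane traffic. TPD52, the founding member, is often amplified and overexpressed in breast and prostate cancer and also attaches to lipid droplets. TPD52L1, also called D53, was described in breast cancer cells as an oestrogen-regulated protein that peaks at the passage from G2 to mitosis and binds the stress kinase ASK1, and TPD52L2, also called TPD54, is an abundant and widely expressed member that marks small intracellular vesicles.

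TPD52L1 lies on chromosome 6 at chr6:125153773-125264407 and TPD52L2 on chromosome 20 at chr20:63865270-63891538 (RefSeq annotation, build GRCh38.p14). For 2 of the 3 genes, the 250 bases before the start given in the RefSeq promoter table are shown. These are TPD52L1, the member with the large change, and TPD52L2, the bright relative that changed little. Both stretches are on the plus strand and read 5′ to 3′. The promoter of TPD52 was not examined. Capitals mark matches to CCAAT (the CCAAT box, here as its reverse complement) and to GGAATG (the core of the TEAD site). The first stretch is chr6:125153996-125154245 and the second chr20:63865020-63865269.
TPD52L1: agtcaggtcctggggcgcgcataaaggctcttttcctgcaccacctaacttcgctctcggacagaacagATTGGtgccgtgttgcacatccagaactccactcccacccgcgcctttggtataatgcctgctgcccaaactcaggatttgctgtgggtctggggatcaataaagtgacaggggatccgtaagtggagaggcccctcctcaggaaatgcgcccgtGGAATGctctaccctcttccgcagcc
TPD52L2: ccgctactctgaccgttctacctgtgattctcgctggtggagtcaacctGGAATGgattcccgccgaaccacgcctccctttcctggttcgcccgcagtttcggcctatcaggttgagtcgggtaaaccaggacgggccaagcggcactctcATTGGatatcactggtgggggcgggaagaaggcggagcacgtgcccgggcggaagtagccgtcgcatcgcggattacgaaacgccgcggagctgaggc

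The annotated span of TPD52L1 begins before its stretch, so the annotation also holds a start upstream of the one shown. The TPD52L1 stretch held 11 CpG dinucleotides and 56.8% G and C, and the TPD52L2 stretch 25 CpG dinucleotides and 62.0%, against a median of 58% G and C over 35116 promoters. Both strands were searched for the CCAAT box and the TEAD core, and also for the TATA box, written TATAAA, the AP-1 site of stress and growth signalling, written TGANTCA, the FOXO site, written GTAAACA, the E2F site of replication genes, written TTTCGCG, and the CHR element of mitotic genes, written TTTGAA. In both stretches the only matches were 1 to CCAAT and 1 to GGAATG, which lay at bases -181 to -177 and -26 to -21 from the TPD52L1 start and at -98 to -94 and -201 to -196 from the TPD52L2 start. Of all promoters of this length, 32.0% held CCAAT and 11.9% held GGAATG.

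All 4 TPD52L1 records were higher with DCC-2036, by 5.19-fold to 16.1-fold, and on each of them the lowest treated array lay above the highest control array. The brightest record, NM_001003397, had intensities of 3489.95, 3644 and 4290.3 in DCC-2036 replicates 1, 2 and 3, against 404, 442 and 537 in control replicates 1, 2 and 3. On this record replicate 3 was the highest array in each group. Its mean was 3808 ± 425 with DCC-2036 and 461 ± 68.3 in control cells (SD, n = 3 each), a log2 change of 3.05 ± 0.18, where the second number is limma's standard error and the log2 values were taken after adding 1. The arrays measured bulk RNA, so a change in the share of cells that express a gene and a change in its RNA per cell cannot be told apart.

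Record NM_001003396 had the highest log2 change of all 45033 records. Its intensities were 2525, 2487 and 2654 in DCC-2036 replicates 1, 2 and 3, against 179, 114 and 193 in control replicates 1, 2 and 3. The treated arrays lay close together, with a mean of 2555 ± 88.1, while the control arrays, with a mean of 162 ± 42.4, were spread more widely, with replicate 2 the dimmest. The log2 change was 4.01 ± 0.23, a 16.1-fold difference, and it was 3.77 when control replicate 2 was left out.

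Record NM_003287 had 1006, 1233 and 1065 in DCC-2036 replicates 1, 2 and 3, against 132, 158 and 123 in control replicates 1, 2 and 3. Replicate 2 was here the highest array in each group. The mean was 1101 ± 118 with DCC-2036 and 138 ± 18.6 in control cells, a log2 change of 2.99 ± 0.17, which is 0.05 below that of the brightest record.

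Record NM_001003395 showed the smallest difference of the TPD52L1 records. It had 1235, 1296 and 1189 in DCC-2036 replicates 1, 2 and 3, against 169.8, 324 and 245 in control replicates 1, 2 and 3, with control replicate 1 the dimmest. The mean was 1239.97 ± 53.8 with DCC-2036 and 246 ± 77.0 in control cells, a log2 change of 2.37 ± 0.25, or 5.19-fold.

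**Figure D1:**
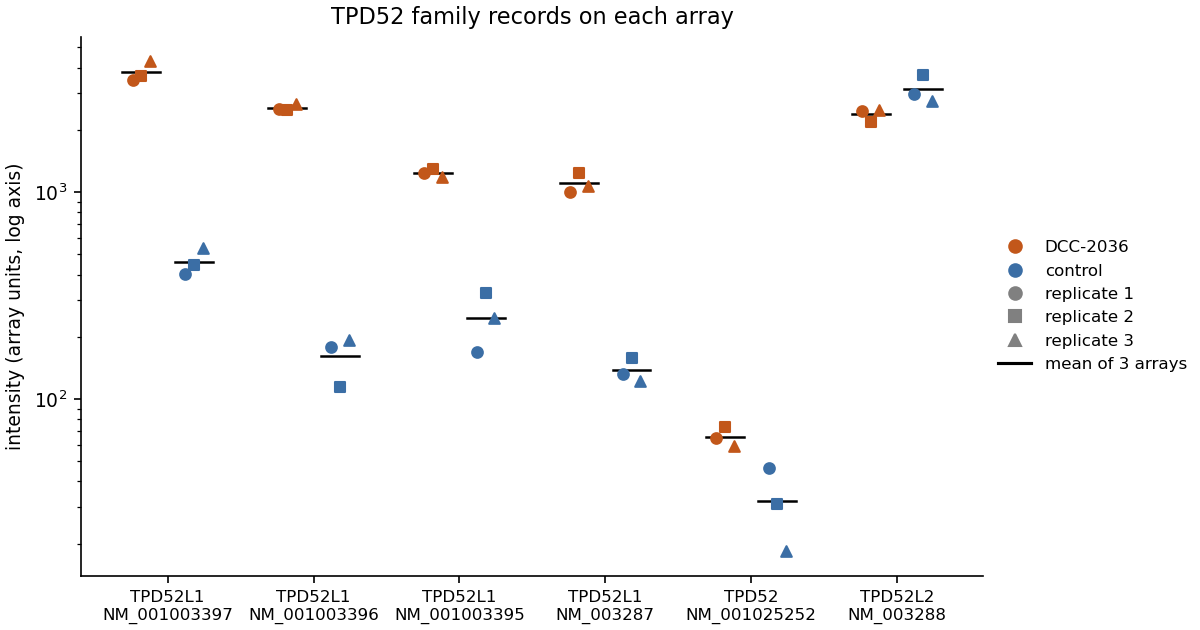
Intensity (log axis) of the 6 TPD52 family records on each array, with DCC-2036 arrays in orange and control arrays in blue, marker shapes for replicate numbers and a bar for the mean of 3 arrays. On the 4 TPD52L1 records every treated array lies far above every control array, TPD52 is dim in both groups, and TPD52L2 is slightly lower with DCC-2036.

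TPD52, the founding member, which lies on chromosome 8, had a dim signal in both groups. Its record NM_001025252 had 65.2, 73.4 and 59.1 in DCC-2036 replicates 1, 2 and 3, against 46.7, 31.1 and 18.4 in control replicates 1, 2 and 3. The groups did not overlap, but the control arrays were widely spread, with replicate 1 the brightest and replicate 3 the dimmest. Means were 65.9 ± 7.20 with DCC-2036 and 32.1 ± 14.2 in control cells, both inside the dimmest 25% of records (a mean intensity under 74.1), for a log2 change of 1.11 ± 0.33. The change was 0.81 when 16 and not 1 was added before the log, 1.42 without control replicate 1 and 0.77 without control replicate 3. The table has no detection column, so it cannot be said whether this record measured TPD52 mRNA above background. The gene has many transcripts but a single named record, and which of them its probes read is not given in the sources used here.

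TPD52L2 went the other way by a small amount. Its record NM_003288 had 2474, 2185 and 2490.1 in DCC-2036 replicates 1, 2 and 3, against 2974, 3680.3 and 2770.1 in control replicates 1, 2 and 3. Each treated array lay below each control array, and control replicate 2 stood highest. The mean was 2383 ± 172 with DCC-2036 and 3141 ± 478 in control cells, a log2 change of -0.39 ± 0.17, and without control replicate 2 it was -0.27.

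TPD52L3, a further relative known mainly from testis, is no member of the set but was on the array with 3 records. Its records had means of 296 ± 64.0, 188 ± 44.6 and 45.2 ± 16.3 with DCC-2036, against 204 ± 61.8, 151 ± 26.7 and 29.8 ± 9.14 in control cells. Their log2 changes were 0.57, 0.30 and 0.57, and 0 of the 3 passed an adjusted p of 0.05 in the limma fit over all records.

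Of the 6 family records, 4 passed that threshold upward, all of them TPD52L1, where 12.5% of all records passed upward, and 0 passed downward, where 13.5% of all records did. These shares rest on 5616 and 6091 records, and the counts were 3246 and 3664 without control replicate 1, with 3497 higher without DCC-2036 replicate 2 and 4029 lower without control replicate 2. The groups did not overlap on 5 records that were higher with DCC-2036 and 1 that was lower, and over all records 22.3% were higher and 22.2% lower without overlap. Ranked from the largest rise among 45033 records, the TPD52L1 records stood at 1, 31, 35 and 138, TPD52 at 2757 and TPD52L2 at 32965. With each gene represented by its brightest record, TPD52L1 ranked at 10 of 17185 genes. These counts and ranks describe the contrast by which the family was chosen.

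**Figure D2:**
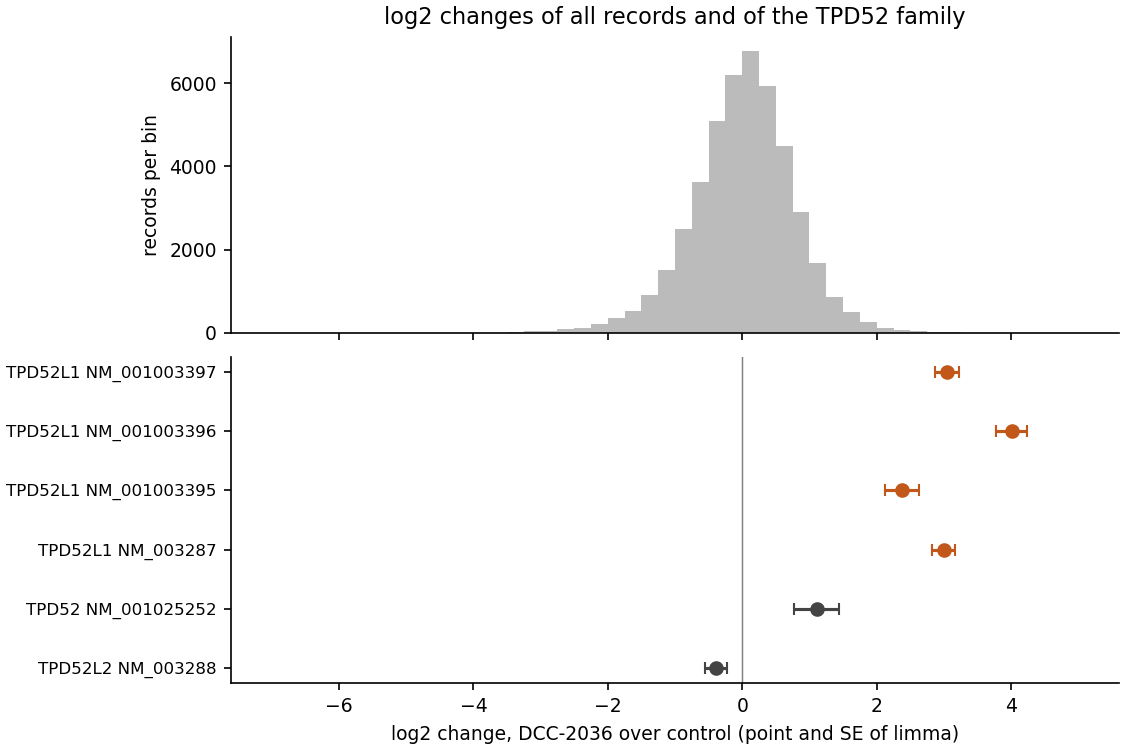
The upper panel counts all records by log2 change, DCC-2036 over control, in bins, and the lower panel gives the log2 change of each TPD52 family record as a point with limma's standard error on the same axis. The TPD52L1 records, in orange, lie between 2.37 and 4.01 at the far right of the distribution, TPD52 lies at 1.11 and TPD52L2 at -0.39.

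The TPD52L1 records differed among themselves in the size of the change. NM_001003396 exceeded NM_001003395 by 1.63 on the log2 scale, NM_003287 by 1.01 and NM_001003397 by 0.96, and NM_001003397 exceeded NM_003287 by 0.05. The records carry the accessions of different RefSeq transcripts of one gene, but how far their probes overlap is not given in the sources used here. Signal of one transcript may therefore appear in several records, and the records are no replicates of each other. The mean over the 4 records gave a log2 change of 3.11.

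Within groups the records did not share one order of arrays. The deviations of each record from its group mean, over the 6 arrays, had Pearson correlations from -0.80, for NM_001003396 with NM_003287, to 0.56, for NM_001003395 with NM_003287, as a description of 6 arrays. In all 6 family records the spread was relatively smaller with the drug. For the TPD52L1 records the SD was 3.45% to 11.2% of the mean with DCC-2036, against 13.5% to 31.3% in control cells. For TPD52 the SD was 10.9% of the mean against 44.1%, and for TPD52L2 7.20% against 15.2%. How often this held over all records was not counted. Setting arrays of the same replicate number side by side gave log2 differences between 2.00 and 4.44 over the 4 TPD52L1 records, between 0.47 and 1.63 for TPD52 and between -0.75 and -0.15 for TPD52L2.

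The profiles nearest to that of TPD52L1 over the 6 arrays were looked for by the root mean square difference of log2 values centred on each gene's mean. They were MMP15, a membrane-bound matrix metalloproteinase (0.18), TSPAN15, a tetraspanin that partners the protease ADAM10 (0.21), DBP, a circadian transcription factor (0.23), SELPLG, the P-selectin ligand (0.23), and CSF1R, a receptor kinase (0.25), where the median over all genes was 1.56. The centred values keep the difference between the groups, by which TPD52L1 was chosen. Genes that rose by a like amount therefore lie near it by construction, and those named had log2 changes from 2.63 (SELPLG) to 3.31 (CSF1R). TSPAN15 had a mean of 4773 ± 249 with DCC-2036, against 726 ± 95.6 in control cells. SELPLG had 2509 ± 81.4 with DCC-2036, against 411 ± 96.1 in control cells. The other TPD52L1 records differed from the brightest by 0.24, 0.43 and 0.53 on this measure.

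The 6 measured genes nearest to TPD52L1 on its chromosome had log2 changes between -2.07 and 0.60, all smaller in size than that of TPD52L1. Of the 3 measured genes on each side of TPD52L1, the nearest upstream in coordinates, RNF217, a ubiquitin ligase gene, had 479.6 ± 41.5 with DCC-2036 and 615 ± 29.4 in control cells and did not pass (-0.36 ± 0.14, limma adjusted p = 0.106). HDDC2, the nearest on the other side, rose by 0.60 ± 0.18 (limma adjusted p = 0.0499), a call that was lost when any of the 6 arrays was left out (0.44 to 0.72), after quantile normalization again (0.55) and with eBayes trend and robust settings. NCOA7, a nuclear receptor coactivator 2 genes further on, fell to 137 ± 38.3 with DCC-2036, against 569.8 ± 82.4 in control cells (-2.07 ± 0.23, limma adjusted p = 0.00227). TRDN, NKAIN2 and HEY2 were dim in both groups and did not pass. Around TPD52, ZBTB10, a zinc finger repressor, fell by 1.47 on the log2 scale (limma adjusted p = 0.0120), and STMN2, HEY1, MRPS28, ZNF704 and PAG1 did not pass. Around TPD52L2, ZBTB46 rose by 1.60 ± 0.30 (limma adjusted p = 0.0109) and SLC2A4RG by 0.66 ± 0.20 (limma adjusted p = 0.0483, lost without any 1 of the 6 arrays, 0.54 to 0.79), while ABHD16B, DNAJC5, UCKL1 and ZNF512B did not pass. ZBTB46 was dim in control cells (mean 59.2).

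**Figure D3:**
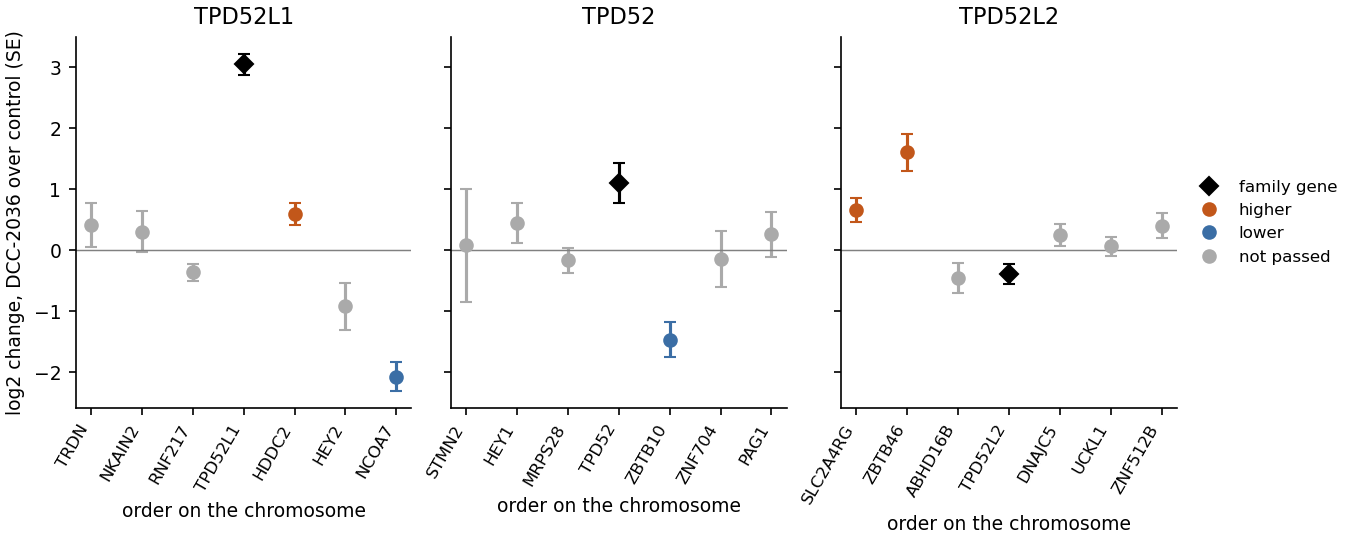
log2 change, DCC-2036 over control, with limma's standard error, for each family gene (black diamond, brightest record) and the 3 nearest measured genes on each side in their order on the chromosome. TPD52L1 stands at 3.05 between RNF217 at -0.36 and HDDC2 at 0.60.

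Genes that the literature connects to the family were counted in lists, in a limma fit of 1 record per gene over all 17185 genes. At an adjusted p under 0.05 that fit put 2257 genes (13.1%) higher and 2745 (16%) lower in treated cells, around a median log2 change of 0.02. These counts dropped to 1421 and 1721 without control replicate 1, and that of the higher genes to 1463 without DCC-2036 replicate 2. Of 13 reported binding partners of TPD52 family proteins, 3 rose, 1 fell and 9 did not pass, with a median of 0.23. STK11, the kinase LKB1 that activates AMPK and binds TPD52, had 1969, 1621 and 1895 in DCC-2036 replicates 1, 2 and 3, against 779.97, 1033 and 938 in control replicates 1, 2 and 3, with no overlap (1.00 ± 0.17, limma adjusted p = 0.00803). SFN, the 14-3-3 sigma protein, rose 1.85-fold, and VAMP2, a vesicle SNARE that TPD52L1 binds, rose 1.54-fold. YWHAZ, 14-3-3 zeta, fell 1.66-fold.

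MAP3K5, the kinase ASK1, had 45.8 ± 5.26 with DCC-2036 and 85.7 ± 30.9 in control cells and did not pass (limma adjusted p = 0.0833). MAL2, a transcytosis protein that binds TPD52-like proteins, was dim on every array, with 20.4, 16.3 and 13.7 in DCC-2036 replicates 1, 2 and 3, against 18.6, 32.2 and 27.2 in control replicates 1, 2 and 3 (limma adjusted p = 0.132). ANXA6, STX1A and the 14-3-3 genes YWHAB, YWHAE, YWHAG, YWHAH and YWHAQ had log2 changes between -0.39 and 0.38 and did not pass. With eBayes trend and robust settings ANXA6, YWHAB and YWHAQ passed. YWHAB and YWHAQ also passed without records below the median, and YWHAB without the dimmest 25% of records. VAMP2 lost its call without DCC-2036 replicate 2 (0.62), control replicate 1 (0.63) or control replicate 3 (0.60), MAP3K5 passed without control replicate 2 (-1.14), and YWHAZ did not pass without DCC-2036 replicate 1 (-0.70), DCC-2036 replicate 2 (-0.73), control replicate 1 (-0.74) or control replicate 2 (-0.62).

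Among 18 MAL and MARVEL proteins, the membrane family to which MAL2 belongs, 3 rose and 2 fell, with a median of 0.13. MALL, a raft protein related to MAL2, had the largest change of the list, with 1586, 1325 and 1593 in DCC-2036 replicates 1, 2 and 3, against 281, 288 and 189 in control replicates 1, 2 and 3 (2.59 ± 0.21, limma adjusted p = 0.00109). PLLP, plasmolipin, rose 2.01-fold and CMTM7 2.24-fold, and CMTM6 fell 1.64-fold. The call of CMTM6 was lost without DCC-2036 replicate 2 (-0.68), control replicate 1 (-0.69) or control replicate 2 (-0.64), and the 2 lower members were 1 without DCC-2036 replicate 1, 2 or 3 and 0 without control replicate 1 or 2.

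Of 47 Rab GTPases, the switches of vesicle traffic, 10 rose and 3 fell, with a median of 0.24. RAB17, a Rab of polarised epithelial traffic (3.86-fold), RAB2A, which acts between the endoplasmic reticulum and the Golgi (2.37-fold), RAB38 (3.55-fold) and RAB20 (2.13-fold) were among the higher ones. Of 36 SNARE proteins, which fuse vesicles with their targets, 8 rose and 4 fell (median -0.03), with BET1 3.71-fold and STX10 2.45-fold higher and STX3 and STX2, syntaxins of the plasma membrane, 2.07-fold and 2.26-fold lower. BET1 was dim in control cells (mean 37.5), and its log2 change of 1.89 was 1.56 when 16 was added before the log. Of 14 genes of ATG9 vesicles and their adaptors, 3 rose and 4 fell (median -0.30): ARFIP2 (3.30-fold) and ATG9A (1.62-fold) rose, and AP4E1 (2.37-fold) and AP4M1 (1.97-fold), subunits of the AP-4 coat, fell. Without control replicate 2 there were 6 higher Rabs, without control replicate 1 there was 1 lower Rab, the lower SNAREs were 2 when any array but DCC-2036 replicate 3 was left out, and the lower ATG9 genes were 2 without control replicate 2 or 3.

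Of 22 lipid droplet genes, 2 rose and 5 fell (median -0.20), with DGAT1, a triglyceride synthase, 3.89-fold and BSCL2, seipin, 2.07-fold higher, and PNPLA3, a lipase, 1.99-fold and G0S2, a lipase inhibitor, 1.69-fold lower. Of 21 genes from ASK1 to JNK and p38, 3 rose and 4 fell (median -0.07), with MAP2K6, a p38-activating kinase, 4.50-fold higher and MAPK12 and MAPK13, p38 gamma and delta, 2.71-fold and 2.44-fold lower, as was MAP3K15, a relative of ASK1 (3.89-fold). Without any 1 of the 6 arrays 1 gene of this list was higher, and the lower lipid droplet genes were 3 without DCC-2036 replicate 3 and 2 without control replicate 1.

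Because TPD52L1 is known as an oestrogen-regulated gene, 24 oestrogen-response genes were counted, of which 6 rose and 2 fell, with a median of 0.64. CA12, a carbonic anhydrase, rose 4.00-fold, RARA, a retinoic acid receptor, 2.10-fold and FHL2 1.63-fold, and CCND1, cyclin D1, fell 2.30-fold. ESR1, the oestrogen receptor that defines luminal cells, had 66.7 ± 43.4 with DCC-2036 and 61.7 ± 81.5 in control cells, and PGR, the progesterone receptor, 15.8 ± 3.63 with DCC-2036 and 21.7 ± 14.4 in control cells, both in the dimmest 25% of records. The 2 lower genes were 1 without control replicate 1 or 2.

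All 12 genes of a short G2 and mitosis list fell, with a median of -2.51, on the same arrays on which TPD52L1 was higher. CDC25C, a phosphatase that starts mitosis, had 198 ± 19.5 with DCC-2036 and 1764 ± 219 in control cells, CDK1, the mitotic kinase, fell 5.29-fold, BUB1, a spindle checkpoint kinase, 7.91-fold and CENPF, a kinetochore protein, 6.14-fold. This list was chosen with its earlier result known, and its part in the TPD52L1 values was not tested.

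**Figure D4:**
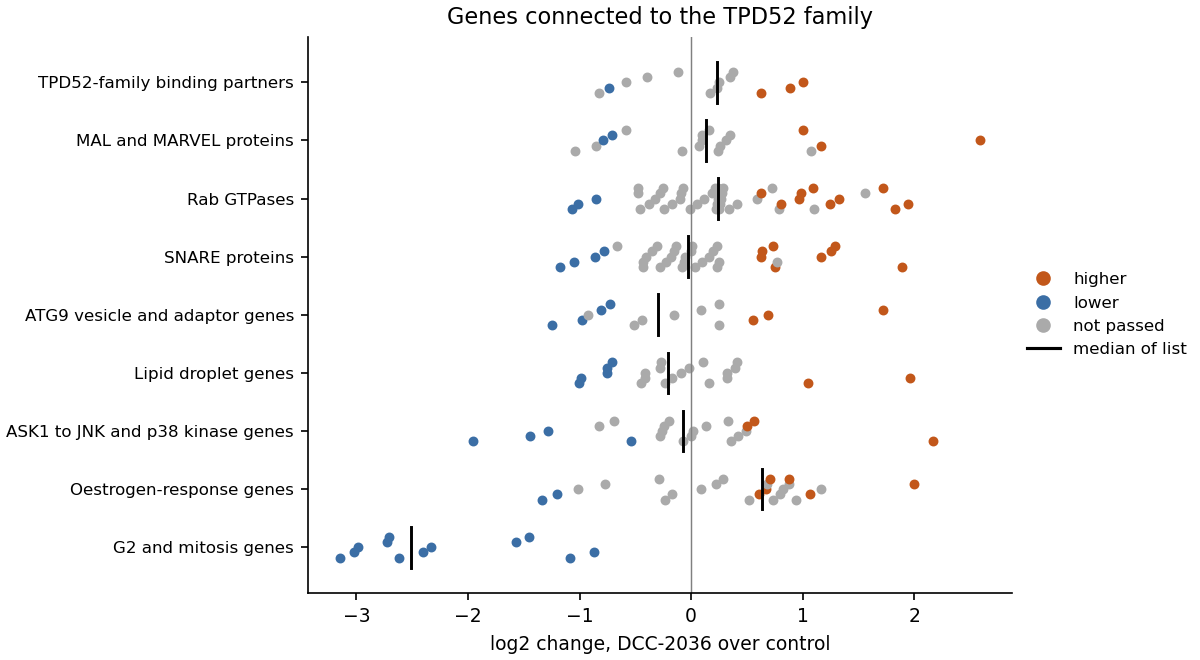
log2 change, DCC-2036 over control, of each gene in the 9 lists, with genes that passed upward in orange, genes that passed downward in blue, others in grey and a black bar at each list's median. The G2 and mitosis genes lie wholly on the lower side, with a median of -2.51, and the other medians lie between -0.30 and 0.64.

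The arrays had median intensities of 267 to 273 with DCC-2036 and 265 to 274 in control cells, and Pearson correlations of log2 values across all records were 0.965 to 0.978 within groups and 0.934 to 0.941 between them. Of 4 genes known to be well expressed in MDA-MB-231 cells, VIM had 11529.6 ± 888 and AXL 4385 ± 604 with DCC-2036, against 16441 ± 1189 and 12869 ± 354 in control cells, while EGFR had 3788 ± 515 and CD44 1409 ± 501 with DCC-2036, against 3809.6 ± 134 and 1691 ± 561 in control cells and did not pass (limma adjusted p = 0.950 for EGFR and 0.597 for CD44). VIM and AXL passed downward (limma adjusted p = 0.0400 for VIM and 0.00170 for AXL). The call of VIM was lost without any 1 of the 6 arrays and with the replicate block. Of 7 luminal markers, ESR1, PGR, FOXA1 and CDH1 lay in the dimmest 25% of records in both groups. The other luminal markers lay above that limit, with 1814 ± 40.6 for ERBB2, 337 ± 39.7 for GATA3 and 241 ± 34.0 for EPCAM with DCC-2036, against 1811 ± 256 for ERBB2, 539 ± 39.5 for GATA3 and 379 ± 61.5 for EPCAM in control cells. Of 4 fibroblast markers, COL1A1 had 179 ± 14.5, COL3A1 82.1 ± 22.9, LUM 41.8 ± 10.0 and DCN 220.1 ± 237 with DCC-2036, against 125 ± 32.2 for COL1A1, 72.8 ± 35.04 for COL3A1, 87.4 ± 20.8 for LUM and 60.9 ± 24.4 for DCN in control cells. The leukocyte markers PTPRC, CD3E and LYZ and the endothelial markers PECAM1 and CDH5 had group means between 17.5 and 54.9, in the dimmest 25% of records.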

How the data were processed

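RNA of 6 MDA-MB-231 cultures was measured on one-colour NimbleGen arrays (3 with DCC-2036, 3 controls). The authors deposited 1 normalized intensity per transcript record and array, made with RMA per the submitters' processing notes. The sources used here do not give the background method, the probes per record or the scanner. The intensities, from 8.03 to 65365, were on a linear scale and were used with no further normalization.

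Records were named by the platform annotation (18188) or by RefSeq accession (678), and 26167 stayed unnamed. In fits by gene, each gene entered through its record of highest mean. The 2 groups were compared on log2(intensity + 1) by a two-sided limma fit without covariates (version 3.58.1, R 4.3.3, lmFit followed by eBayes). Adjusted p-values follow Benjamini and Hochberg over all 45033 records or all 17185 genes, at a threshold of 0.05. The procedure was tested on simulated data. With 3 arrays a group, exact permutation allows no two-sided p below 0.1. The number of arrays limits the precision. A fold is the log2 change turned back to a ratio.

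The members and the 9 lists were chosen with earlier results of these data known. Named were all family records, all binding partners, up to 4 genes with the smallest p past the threshold per other list, 3 neighbours per side, the 5 nearest profiles and cell markers. Python 3.11.15, pandas 2.3.3 and matplotlib 3.10.9 made names and figures.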

Additional observations from a re-analysis of the deposited data

How the results depend on the processing

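The log2 changes of all 6 family records kept their sign and moved by less than 1 SD between replicates in every alternative in which they were kept (TPD52 was removed by both filters on dim records). Since TPD52L1 was chosen by this contrast, its direction and its calls were fixed by the choice and are no sign of stability. TPD52 passed with 16 added before the log (0.81) and without control replicate 1 (1.42), and TPD52L2 passed without records below the median and with eBayes trend and robust settings (-0.39 in each). Leaving out 1 array at a time gave 2.96 to 3.16 for NM_001003397, 3.77 to 4.15 for NM_001003396, 2.13 to 2.60 for NM_001003395, 2.91 to 3.10 for NM_003287, 0.77 to 1.42 for TPD52 and -0.48 to -0.27 for TPD52L2. Of 395 recomputed values and counts (family records, lists and totals), 337 kept their direction and stayed within these limits (1 SD for a value, 1.5 times for a count).

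Deviations of same-numbered arrays correlated at -0.08, 0.04 and -0.08 over all records, and other combinations at -0.07 to 0.14. Arrays of the same replicate number were thus no more alike than others. With 3 arrays a group, these values cannot show whether same-numbered cultures were handled together. With the replicate block the counts were 3163 higher and 3726 lower records, 1376 higher and 1793 lower genes, 6 higher and 1 lower Rab, 4 higher and 2 lower SNAREs, 1 higher ATG9 gene, 1 higher ASK1 gene, 0 lower partners and 0 lower MARVEL genes. Among the list genes named above, ATG9A and FHL2 lost their call with the block (limma adjusted p = 0.0512 and 0.0513), as did VAMP2, YWHAZ and CMTM6. Without records below the median there were 5 higher partners, 1 lower MARVEL gene, 5 lower Rabs, 7 lower SNAREs, 5 higher ASK1 genes and 1 lower oestrogen-response gene, and without the dimmest 25% there were 5 lower Rabs. The eBayes trend and robust settings gave 5 higher and 2 lower partners, 1 lower MARVEL gene, 5 lower Rabs and 7 lower SNAREs. Leaving out 1 array at a time gave 3246 to 4575 higher and 3664 to 5083 lower records, 1421 to 1886 higher and 1721 to 2307 lower genes, 0 to 1 lower partner, 0 to 2 lower MARVEL genes, 6 to 9 higher and 1 to 3 lower Rabs, 2 to 4 lower SNAREs, 2 to 4 lower ATG9 genes, 2 to 4 lower lipid droplet genes, 1 higher ASK1 gene and 1 to 2 lower oestrogen-response genes. The cause of these shifts was not tested. Fewer records or arrays entered some of the fits, and the fit with the replicate block estimated further terms, for replicate number, from the same arrays. No signal over background is given, so dim records such as that of TPD52 have no known detection limit.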
